A study of Caenorhabditis elegans with 4 samples.

Results

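On chromosome II of Caenorhabditis elegans, 400 regions were called as bound by the forkhead protein UNC-130, out of 2715 on all 6 nuclear chromosomes (14.7%, 95% exact binomial interval 13.4% to 16.1%). They are every entry for chromosome II in the list of bound regions that the authors deposited, and no measured value was used to choose them. The list comes from ChIP-seq, in which DNA crosslinked to a protein is captured with an antibody and sequenced, and a peak caller marks where captured DNA exceeds input DNA. The animals were fed hermaphrodite larvae of stage L1, strain OP77, grown at 20 °C. They carry the mutation unc-119(ed3) on chromosome III and the transgene insertion wgIs77, which holds a working unc-119(+) copy as its marker and the fusion unc-130::TY1::EGFP::3xFLAG. There were 2 ChIP libraries, captured with a polyclonal goat antibody to green fluorescent protein, and 2 libraries of input DNA, and all 4 came from this strain. The fusion protein is made from a transgene introduced by bombardment, and the genotype lists no change at the animals' own unc-130 gene. No library of animals without the tag was used here, and the sources used here do not give the number of transgene copies.

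UNC-130 belongs to the forkhead transcription factors, which bind DNA through a winged-helix domain. In the worm it is known for keeping the guidance ligand UNC-129 out of ventral body muscle, which steers migrating cells and axons along the dorsal-ventral axis, and for a role in the lineage that gives rise to certain chemosensory neurons. The worm's autosomes are known to have gene-dense centres of low recombination, flanked by arms richer in repeats. Whole larvae were used, so strong binding in a few cells and weak binding in many cannot be told apart.

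A region is given by its first and last base in WormBase WS180 coordinates and by a q value, the adjusted significance that the authors obtained with the peak caller PeakSeq. These are combined values: no region has a value per library, the read depth behind a region is unknown, and replicates could not be compared. Regions of 1 list are not replicates of a condition and near neighbours are not independent. What follows is therefore a description, in which intervals count regions only and are narrower than independent sampling of animals would give. The gene unc-130 itself is on chromosome II, in a gene table of another assembly (WBcel235). Its position was not set against WS180, so which of the regions lie around it was not determined, and no region is assigned to a gene.

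UNC-130::GFP regions on chromosome II were sparse on the left and about equally frequent in the centre and on the right. The 15.2 Mb between the outermost midpoints, called the span here, were divided into parts of 33.3% at 5.12 and 10.2 Mb. The left part held 79 regions (19.8%, interval 15.96% to 23.99%), the centre 159 (39.8%, 34.9% to 44.7%) and the right part 162 (40.5%, 35.7% to 45.5%). This is 15.6 regions per Mb on the left, 31.3 in the centre and 31.9 on the right. The interval of the left part does not reach those of the other parts, and the latter overlap almost fully.

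**Figure D1:**
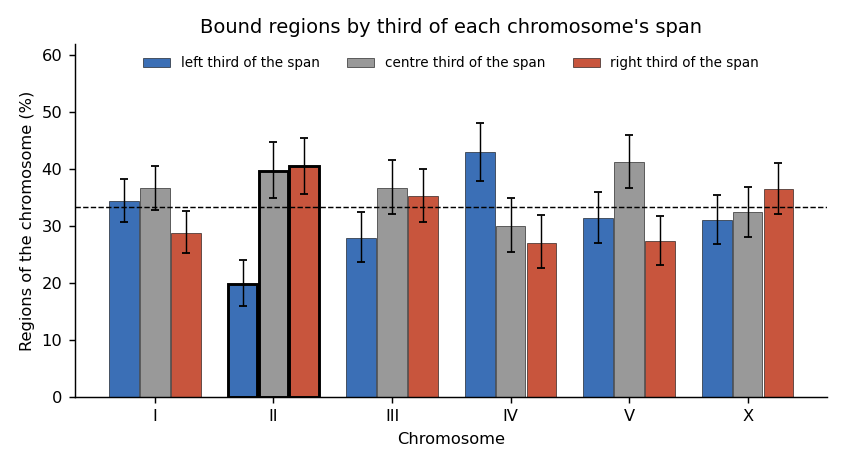
Share of each chromosome's bound regions (%) in the left, centre and right 33.3% of its span, with 95% exact binomial intervals over regions; the dashed line marks 33.3% and chromosome II is outlined. The left part of chromosome II, at 19.8%, is the lowest bar of the 18.

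The left part of chromosome II had the lowest density of all 18 parts of the 6 chromosomes. The sparsest parts elsewhere were the right parts of V (17.1 per Mb) and IV (17.3 per Mb). The left part also had the least DNA inside regions, 5.89 bp per kb, against 17.3 bp per kb in the centre and 16.4 bp per kb on the right of chromosome II and 13.4 bp per kb over the whole list. The side with fewer regions was not the same on every chromosome: on IV it was the right, with 27.0% against 43.0% on the left.

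The low count on the left came mostly from the first 4 Mb. These held 49 regions, or 12.4 per Mb, and the rest of the chromosome held 351, or 31.2 per Mb. Windows of 1 Mb held 15, 5, 16 and 13 regions from the left end to 4 Mb, then 27, 28, 30 and 27 up to 8 Mb. The limit of 4 Mb was not planned and lies where these counts rise, so the 2 densities restate them. The window from 8 to 9 Mb held 40 regions and that from 11 to 12 Mb held 43, the highest count on the chromosome. The window from 12 to 13 Mb held 25, the next 37, and the one from 14 to 15 Mb held 23.

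**Figure D2:**
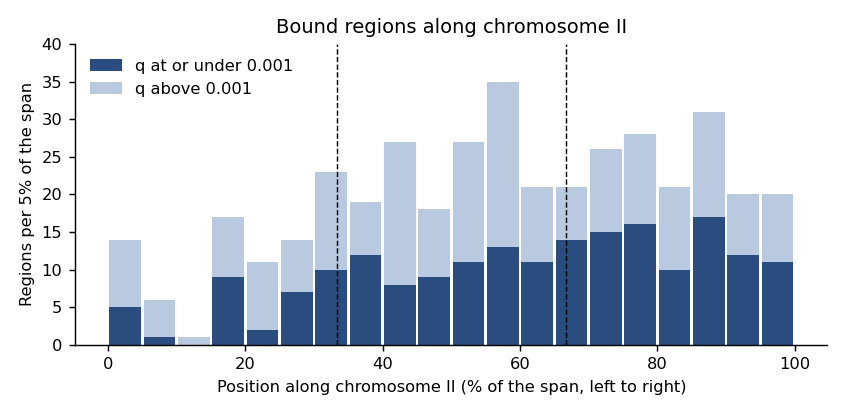
Number of bound regions in each 5% of the span of chromosome II, from the left to the right end, split by a q value at or under 0.001 (dark) or above it (light); dashed lines separate the parts of 33.3%. The bin from 10% to 15% holds 1 region, and the highest bar, from 55% to 60%, holds 35.

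A stretch of 1.15 Mb in the left arm was almost free of regions. Between 1376036 and 2529132 there was 1 region, at 2059047 to 2059348 (302 bp wide, q = 0.00193, rank 1649 of the list). The gaps on its sides, of 683 kb and 470 kb, were the 2 longest on the chromosome, and the first exceeded the longest gap of every other chromosome (489 kb on V, and 223 to 280 kb on I, III, IV and X). The next longest gaps of chromosome II were 361 kb, from 3141230 to 3502557, and 286 kb, from 848933 to 1134478, and then 200 kb, from 3812056 to 4011700. All 5 lay in the left part. Gaps over 100 kb made up 7.02% of the gaps on chromosome II. Elsewhere the share was 2.56% on I, 7.42% on III, 9.74% on X, 13.8% on IV and 14.9% on V. Of 153 stretches of 100 kb, 25 held no region: 19 of 51 in the left part (37.3%), 3 of 51 in the centre and 3 of 51 on the right. Whether reads map to these stretches as well as elsewhere was not tested.

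The share of regions that passed stricter limits of significance was highest on the right at each limit, with intervals that overlap those of the centre. A q value at or under 0.001 was given to 193 of the 400 regions (48.3%, 43.3% to 53.3%), against 51.7% of the whole list. The share was 41.8% on the left (30.8% to 53.4%), 42.8% in the centre (35.0% to 50.8%) and 56.8% on the right (48.8% to 64.5%). A q value at or under 1e-05 was given to 78 regions of chromosome II (19.5%), against 19.9% of the list. These were 9 of the 79 on the left (11.4%, 5.34% to 20.5%), 29 of the 159 in the centre (18.2%, 12.6% to 25.1%) and 40 of the 162 on the right (24.7%, 18.3% to 32.1%). A q value at or under 1e-10 was given to 17 regions (4.25%, 2.49% to 6.72%), against 3.24% of the list. Those were 1 region on the left (1.27%, 0.032% to 6.85%), 7 in the centre (4.40%, 1.79% to 8.86%) and 9 on the right (5.56%, 2.57% to 10.3%). These counts are too small to tell the centre and the right apart. In the 100 least significant regions of chromosome II the centre led, with 50 regions against 33 on the right and 17 on the left.

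Chromosome II was represented among the best regions of the list about as often as in the list as a whole. It held 4 of the first 25 regions, 9 of the first 50, 20 of the first 100 (20%, 12.7% to 29.2%) and 137 of the first 1000 (13.7%, 11.6% to 16.0%). Each of these intervals includes the 14.7% of the whole list.

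The 20 most significant regions of chromosome II had q values from 6.12e-23 to 2.17e-10 and widths from 305 to 7795 bp, with a median of 816 bp. In position, 11 lay on the right, 8 in the centre and 1 on the left. The 2 most significant lay 845 bp apart in the right part, at 11281090 to 11281840 (751 bp, q = 6.12e-23, rank 9 of the list) and at 11279519 to 11280244 (726 bp, q = 3.94e-21, rank 13). The next 4 were all central. The one of rank 16 lay at 8819739 to 8821599 (1861 bp, q = 6.20e-20), and that of rank 21 at 7836406 to 7837063 (658 bp, q = 4.10e-17). Rank 26 lay at 8959041 to 8960019 (979 bp, q = 4.48e-15) and rank 28 at 7528156 to 7529732 (1577 bp, q = 1.73e-14).

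The others of the 20 included regions close to the usual width. The region at 14561560 to 14561911 was 352 bp wide with q = 6.88e-14, and the one at 14154302 to 14154619 was 318 bp wide with q = 9.78e-11. The only one in the left part, at 4851669 to 4851973, was the narrowest of the 20 (305 bp, q = 1.05e-12). High significance was thus also reached without breadth. Other central ones lay at 7631063 to 7631942 (q = 1.34e-11), 5844552 to 5844983 (q = 2.88e-11), 9343889 to 9344383 (q = 4.27e-11) and 9283634 to 9285465 (q = 1.53e-10). On the right were 10446908 to 10447944 (q = 6.60e-13), 11641919 to 11642454 (q = 2.50e-12), 13290353 to 13292011 (q = 1.77e-11), 10562671 to 10563899 (q = 2.17e-10) and 3 regions described with their groups.

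Of the 20, 13 had another region within 5 kb from edge to edge, against 42.5% of the 400 and 40.5% of the list. Of these 13, 4 belonged to the single group of 8 regions described below. No trend with significance appeared over all 400. In sets of 100 ordered by q value, 44, 42, 42 and 42 had another region within 5 kb, from most to least significant. Of the 20, 4 had none within 20 kb, against 26.3% of the 400 and 26.4% of the list. The 4 solitary ones were those at 7836406, 7528156, 14561560 and 4851669, whose nearest neighbours were 29.2, 49.0, 32.9 and 23.3 kb away.

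Most bound regions of chromosome II were under 1000 bp wide. The median width was 369 bp (interval 339 to 392 bp), against 378 bp over the list, and the 25th and 75th percentiles were 286 and 556 bp. There were 31 regions of at least 1000 bp (7.75%, against 7.4% of the list) and 18 of 50 bp or less (4.50%, against 4.68%). Both shares were near those of the whole list. Within the chromosome the counts per part were small. The left part held 1 region of at least 1000 bp out of 79 (1.27%, 0.032% to 6.85%), the centre 17 of 159 (10.7%, 6.35% to 16.6%) and the right part 13 of 162 (8.02%, 4.34% to 13.3%). For regions of 50 bp or less the order of the shares was the opposite, with 9 on the left (11.4%, 5.34% to 20.5%), 3 in the centre (1.89%, 0.39% to 5.41%) and 6 on the right (3.70%, 1.37% to 7.89%). The interval of the left part overlaps those of the others at both limits of width, and the difference between parts was not tested. The centre had the highest share of regions of at least 1000 bp on each of the 6 chromosomes, between 5.65% on I and 12.7% on X. The left part had the highest share of regions of 50 bp or less on 4 of the 6.

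The 10 widest regions covered 28810 bp, 14.3% of the 200892 bp inside regions of chromosome II. None lay in the left part, 7 lay in the centre and 3 on the right. The widest, at 10546519 to 10554313, spanned 7795 bp (q = 1.39e-10), 2.14 times the next, at 8741861 to 8745509 (3649 bp, q = 1.54e-09). Width and significance parted in several of them. The region at 6346449 to 6349045 was 2597 bp wide with q = 0.00725, and ranked 365 of the 400. Those at 6842490 to 6844982 (2493 bp, q = 0.00146) and 9620174 to 9622086 (1913 bp, q = 0.00115) were also above 0.001. Others had q values of 4.16e-05 (9060107 to 9062548), 1.66e-06 (11634009 to 11636155) and 2.37e-07 (8015402 to 8017459). At the other end, 1 region was a single base long, at 4199861, with q = 0.00489.

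**Figure D3:**
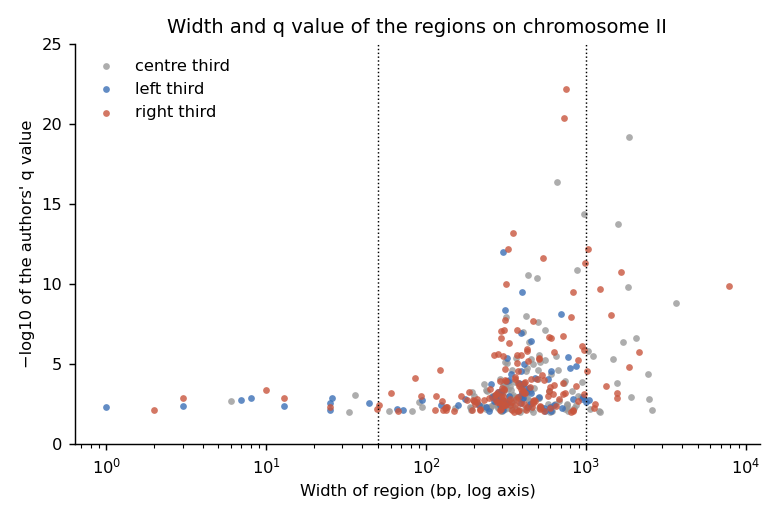
Width in bp (log axis) and −log10 of the authors' q value for the 400 regions of chromosome II, coloured by part; dotted lines mark 50 and 1000 bp. Regions of 50 bp or less stay low, the best at q = 4.24e-04, and the widest point, of 7795 bp, ranks 18 of the 400 by q value.

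Wider regions had smaller q values, with much scatter. Spearman's rho between width and −log10 q was 0.33 across the 400 regions, and Pearson's r was 0.31. Both values come from the same peak call on the same libraries, so the relation describes the list. Over the other chromosomes together rho was 0.40 and r 0.52, and r on chromosome II was the lowest of the 6. Ordered by q value in sets of 100 regions, the median widths were 504, 359, 316 and 306 bp from the most to the least significant set. Of the 18 regions of 50 bp or less, 2 had a q value at or under 0.001 (11.1%). The share was 45.6% for widths over 200 and up to 400 bp, 59.2% for widths over 400 and up to 1000 bp and 71.4% for the 7 regions over 2000 bp.

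Bound regions of chromosome II lay singly or in small groups. Of 399 gaps between neighbours the median was 19.6 kb, the 25th and 75th percentiles were 4.83 and 50.03 kb, and 102 were 5 kb or less. Another region within 5 kb was found for 170 regions (42.5%, 37.6% to 47.5%), near the 40.5% of the whole list. Other chromosomes ranged from 29.5% on IV to 47.8% on I. Within chromosome II the share was 36.7% on the left (26.1% to 48.3%), 46.5% in the centre (38.6% to 54.6%) and 41.4% on the right (33.7% to 49.4%). The median distance to the nearest other region was 13.3 kb on the left, 6.41 kb in the centre and 6.82 kb on the right, against 7.73 kb over the list. On the left 33 of 79 regions (41.8%) had no other within 20 kb, against 34 in the centre (21.4%), 38 on the right (23.5%) and 26.4% of the list.

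**Figure D4:**
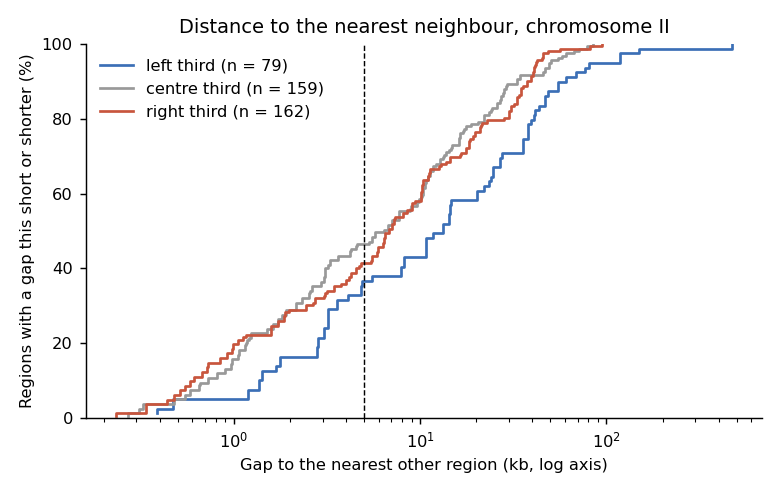
Cumulative share (%) of the regions of chromosome II by the gap to the nearest other region, edge to edge, in kb on a log axis, for each part; the dashed line marks 5 kb. The line of the left part runs below the others from about 1 kb upward, with a median of 13.3 kb against 6.41 and 6.82 kb.

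The smallest gap over the whole list was 200 bp. Whether the peak caller limits how close regions can lie was not tested. On chromosome II the closest pairs were 234 bp apart (12052791 to 12053238 and 12053473 to 12053761), 270 bp (8117446 to 8117730 and 8118001 to 8118329) and 309 bp (7342446 to 7343337 and 7343647 to 7344242). Their members had unequal q values: 2.79e-04 and 0.00255 in the first pair, 0.00328 and 9.67e-04 in the second, and 9.53e-04 and 0.00999 in the last. More generally, the q value of a region said little about that of the next. Spearman's rho between the −log10 q of neighbours was 0.026 over the 102 pairs with a gap of 5 kb or less and -0.0019 over the 297 pairs farther apart.

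Chaining gaps of 5 kb or less gave 68 groups of 2 or more regions, which together held 170 regions, while 230 stood alone. There were 48 pairs, 12 groups of 3, 5 of 4, 2 of 5 and 1 of 8. The other chromosomes held from 47 such groups on IV to 123 on I. By part, 13 groups lay on the left, 30 in the centre and 25 on the right. The left part also held only 79 of the 400 regions. All 8 groups of 4 or more lay outside the left part, a small count. Grouped regions were wider than those alone, with a median of 404 against 342 bp, and 21 against 10 of them reached 1000 bp. The shares of significant regions were close: 48.8% of grouped and 47.8% of single regions had a q value at or under 0.001, and 19.4% and 19.6% one at or under 1e-05.

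The group of 8 was the largest on any chromosome, the next being 7 regions on V. It ran over 13.1 kb in the right part, from 11275444 to 11288582, with gaps of 582 to 2992 bp between its members, and 32.3% of its length lay inside regions. It held 4 of the 20 most significant regions of chromosome II. In order along the chromosome, the first region was 294 bp wide with q = 2.50e-07 and the second 207 bp with q = 0.00153. Then came the pair of ranks 13 and 9 on the list. The fifth, at 11282966 to 11283496, was weaker at q = 4.92e-05. The sixth, at 11284653 to 11284978, had q = 6.27e-13 in 326 bp, and the seventh, at 11286262 to 11287242, q = 4.78e-12 in 981 bp. The last, at 11288161 to 11288582, had q = 0.00741. Significance thus had separate high points, with weaker calls between them and at the right edge. To the right of the group the next 164 kb held no region. Whether the group lies around the unc-130 gene was not determined. A contribution of extra transgene copies to its signal was not tested.

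**Figure D5:**
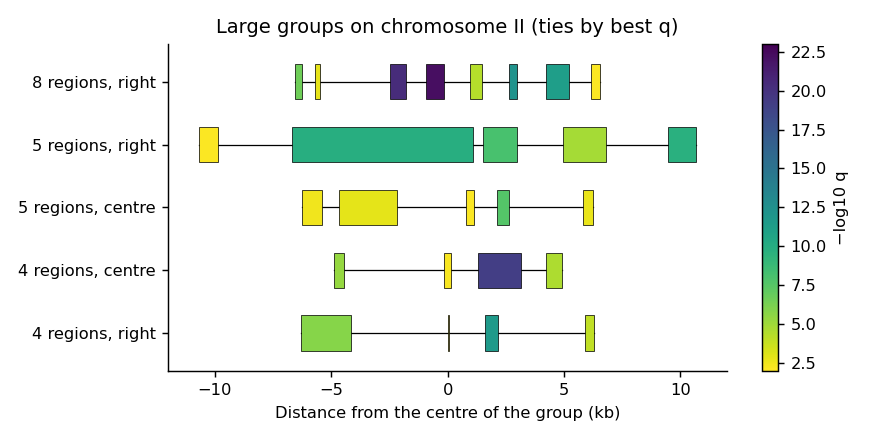
The groups of 8 and 5 regions on chromosome II and, of the 5 groups tied at 4 regions, the 2 with the smallest q values, each drawn to scale as distance in kb from the centre of the group; boxes are regions, coloured by −log10 q, and lines are the gaps between them. The group of 8 holds the 2 darkest boxes, and the group below it is dominated by a box of 7795 bp.

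The other large groups differed in form. The 5 regions at 10542531 to 10563899, also on the right, filled 61.5% of 21.4 kb. They comprised the widest region of the chromosome, a region of 1427 bp 439 bp away from it (q = 8.03e-09), regions of 1855 bp (q = 1.62e-05) and 1229 bp (q = 2.17e-10), and a weak call of 831 bp at the left edge (q = 0.00826). The 5 central regions at 6840898 to 6853414 were weak except for 1, at 6849278 to 6849779 (q = 2.46e-08). The other 4 had q values from 0.00146 to 0.00816. The group of 4 at 8813547 to 8823340 was led by the region of rank 16, and the others had q values of 4.69e-06, 0.00621 and 2.49e-05. In the group of 4 at 11634009 to 11646574, the smallest q value (2.50e-12) belonged to a region of 536 bp and not to the widest, of 2147 bp (q = 1.66e-06).

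Counted in stretches of 100 kb, the densest were those from 11.2 to 11.3 Mb, which includes the group of 8, from 8.1 to 8.2 Mb and from 6.8 to 6.9 Mb, with 9 regions each. The stretches from 11.6 to 11.7 and from 9.0 to 9.1 Mb followed with 8 each. Dense stretches were not always significant ones: the best q value was 9.55e-06 at 9.0 to 9.1 Mb and 6.12e-23 at 11.2 to 11.3 Mb.

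Regions that stood far from any other had small q values about as often as the regions of chromosome II in general, on small counts. In all, 21 regions had no neighbour within 50 kb, 10 of them on the left, 8 in the centre and 3 on the right. The share of such regions over the whole list is not given here. Of the 21, 4 had a q value at or under 1e-05, against 19.5% of the 400 regions and 19.9% of the list. The most significant of the 21, at 1320480 to 1320878 in the left part (399 bp, q = 3.27e-10), ranked 21 on the chromosome. It was 54.8 kb from the nearest other region. The outermost regions of chromosome II were at 43279 to 44111 (q = 0.00157) and 15266195 to 15266739 (q = 0.00812).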

How the data were processed

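Regions were read from the 1 list that the authors deposited, made with PeakSeq on WormBase WS180 coordinates, per the file headers and the list's source column. Its only measured value is a q value per region, as deposited; the sources used here do not give the aligner, the scaling against input or the pooling of replicates. Larvae were crosslinked with 2% formaldehyde, per the labels' protocols. The labels number 2 replicates and do not say whether these were separate cultures. In the list no regions overlapped, every q value was under 0.01, and the smallest gap was 200 bp over the list and 234 bp on chromosome II.

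Widths count both end bases, positions are midpoints, and gaps run from edge to edge. Ranks follow the order of the deposited list, which is close to the order of q values but not identical to it. The distance between the outermost midpoints of a chromosome stands in for its length. Intervals on shares are 95% exact (Clopper-Pearson), those on medians are binomial order-statistic intervals, and no test was run. Named regions are the 20 most significant, the 10 widest, the narrowest, the closest pairs, 5 of the largest groups (ties at 4 regions taken by the smallest q value), the longest gaps and the outermost regions; the most significant region with no neighbour within 50 kb, the stretch of 1.15 Mb and the best region of 50 bp or less were chosen after their values were seen. Regions and lists were chosen with earlier results of these data known. Python 3.11.15, numpy 2.4.6, pandas 2.3.3, scipy 1.17.1 and matplotlib 3.10.9 were used, and the measures were tested on simulated data. No sequence is shown, since no genome of WS180 was used here.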

Additional observations from a re-analysis of the deposited data

How the results depend on the processing

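Of 39 values recomputed under an alternative, 30 stayed within the interval of the reported value. Some alternatives change the measure itself, such as the q limit or the size of the parts, so this tally does not measure robustness. The left part held the lowest share under every alternative tried, from 12.3% (parts drawn around the middle 50% of the span, where the middle held 57.8% and the right end 30%) and 14.9% (covered bases) to 21.1% (gaps of 5000 bp or less merged). With q values at or under 0.001, the right part rose to 47.7%, the median width to 416 bp, and the share with another region within 5 kb fell to 25.4%, where fewer regions remained to be neighbours. Merging gaps of 1000 bp or less gave 33.1% for that share, since joined pairs no longer count. At or under 1e-05, 19.5% of regions passed. Leaving out the group of 8 regions, an alternative chosen after the data were seen, gave 39.3% on the right. No paired analysis was possible because regions carry combined values only, which also means that replicates could not be left out in turn. Depth is unknown, so the number of weaker sites missed was not estimated.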
